A study of Mus musculus with 4 samples.

Results

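The endothelial genes examined here are 10 genes used to mark the lining cells of blood vessels: Pecam1, Kdr, Cdh5, Tek, Tie1, Flt1, Emcn, Cldn5, Sox17 and Plvap. They were chosen by name, each had 1 probe set on the array under its Entrez gene identifier, and together they are 10 of the 16492 probe sets tested. The samples were whole fore- and hindlimbs of mouse embryos at E12.5, labelled strain C57BL/6, which carried the transgene Tg(Col2a1-SHOX) or were wildtype littermates. The transgene is the human SHOXa cDNA under a Col2a1 promoter and enhancer, used before to express constructs in proliferating chondrocytes. The study calls this promoter rat in its methods and results and murine in its abstract. It saw the transgene around the forming cartilage at E12.5 and does not report on transgene expression in endothelium. The study kept heterozygous lines, from founders made in C57BL/6 x DBA/2 hybrid eggs and mated with C57BL/6 mice. Which line was pooled is not stated. The array carries mouse genes, so the human transgene itself was not measured here. Each genotype had 2 arrays, and each array carried the RNA of 2 to 4 embryos, so a value is the level of a pool with every limb tissue in it. The series describes 2 hybridization experiments, and the array titles carry a suffix that 1 transgenic and 1 wildtype array share. The labels do not say what the suffix stands for. It is read here as the experiment, and the pairs of arrays are called experiments 2 and 1 without a meaning to the number. The p-values rest on the spread between these pools, drawn towards that of all probe sets together, and part of it may be technical. Where the experiment is left out of the fit, this spread includes the shift between experiments.

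Vessels of the limb bud form before and around the cartilage condensations, which themselves stay free of vessels. Endothelial cells are guided by vascular endothelial growth factor (VEGF) through the receptors Kdr and Flt1, and by angiopoietins through the receptor Tek with its partner Tie1. They are held together by Cdh5, Cldn5 and Pecam1, carry Emcn and Plvap on their surface, and in arteries use the transcription factor Sox17. Factors of the ETS family such as Erg and Fli1 bind a GGAA core and are needed for the endothelial state.

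In transgenic limbs no endothelial gene passed the thresholds used here, a mean log2 difference beyond 0.2 at an unadjusted p under 0.05. This held whether or not the experiment was taken into account. Of all probe sets 0.188% passed without the experiment in the fit and 1.55% with it. The study set the same limits on the difference and on p but required the change in both experiments, without saying whether p was adjusted. Within either experiment no endothelial gene differed by more than 0.13 on the log2 scale. The log2 differences, transgenic minus wildtype, ran from -0.06 for Cdh5 to 0.10 for Tek. All but Cdh5 differed more between the hybridization experiments than between the genotypes, as did 74.4% of all probe sets. The shifts were not in 1 direction. Pecam1, Emcn and Tek were lower and Plvap and Tie1 higher in experiment 2, by up to 0.63 on the log2 scale. In tissue of many cell types, fewer endothelial cells and less RNA per endothelial cell cannot be told apart.

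Windows of 250 bases before to 50 bases after the transcription start were found for 6 of the 10 genes, Kdr, Tek, Tie1, Flt1, Emcn and Cldn5, in RefSeq sequence of build GRCm38.p6. Those of Tek, Tie1 and Emcn are shown because these genes differed between the experiments. That of Cldn5 is shown as 1 of those that did not pass there. Each is written 5′ to 3′ on the strand of its gene, with the ETS core GGAA, or TTCC where the core lies on the other strand, in capitals. They lie at chr4:94739039-94739338 (plus strand), chr4:118489800-118490099 (minus strand), chr3:137340828-137341127 (plus strand) and chr16:18776597-18776896 (plus strand).
Tek: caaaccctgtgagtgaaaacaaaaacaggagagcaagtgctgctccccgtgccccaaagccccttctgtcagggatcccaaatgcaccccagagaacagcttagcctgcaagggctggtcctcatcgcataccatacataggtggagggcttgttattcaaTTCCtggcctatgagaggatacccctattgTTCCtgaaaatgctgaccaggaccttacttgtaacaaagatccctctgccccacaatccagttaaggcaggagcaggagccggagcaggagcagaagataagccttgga
Tie1: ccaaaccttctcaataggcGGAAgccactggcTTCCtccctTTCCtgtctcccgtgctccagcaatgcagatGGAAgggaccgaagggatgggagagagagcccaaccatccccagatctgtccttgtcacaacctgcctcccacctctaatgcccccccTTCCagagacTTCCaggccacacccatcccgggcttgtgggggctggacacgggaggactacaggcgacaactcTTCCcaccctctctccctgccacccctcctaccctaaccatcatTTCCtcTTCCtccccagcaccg
Emcn: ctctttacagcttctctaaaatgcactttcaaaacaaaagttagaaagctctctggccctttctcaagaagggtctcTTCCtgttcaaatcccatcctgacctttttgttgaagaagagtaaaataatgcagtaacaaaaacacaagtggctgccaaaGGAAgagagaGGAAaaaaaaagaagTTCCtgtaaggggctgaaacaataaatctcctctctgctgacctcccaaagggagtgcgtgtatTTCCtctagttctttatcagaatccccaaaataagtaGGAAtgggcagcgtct
Cldn5: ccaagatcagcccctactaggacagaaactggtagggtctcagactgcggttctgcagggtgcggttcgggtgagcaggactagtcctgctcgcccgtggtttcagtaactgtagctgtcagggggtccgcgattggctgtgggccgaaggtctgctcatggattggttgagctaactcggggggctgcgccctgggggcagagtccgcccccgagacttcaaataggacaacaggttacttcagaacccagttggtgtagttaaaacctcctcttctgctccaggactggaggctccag
GGAA on either strand occurs in 96% of the 32851 windows of this length over all genes, with a median of 3 per window. The Tie1 window holds 9 copies, a number reached in 1.59% of all windows, and that of Emcn holds 6, reached in 15.7%. Tek has 2 copies and Cldn5 has none, as in 4.02% of windows. Kdr and Flt1, which also did not pass between the experiments and are not printed, have 5 and 4. The longer form CAGGAA, which contains the core and was sought on both strands, occurs in 30.6% of windows. Tek and Emcn hold 2 copies of it, a number reached in 5.87% of windows, and Tie1 holds 1. These matches describe the letters of the windows only, and binding was not measured.

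The receptors for VEGF differed little between any of the arrays. Kdr, the main signalling receptor for VEGF, had log2 values of 9.30 and 9.29 in transgenic limbs of experiments 2 and 1, against 9.18 and 9.31 in wildtype limbs. Its transgenic values lay inside the range of the wildtype values. Flt1, a receptor that binds VEGF tightly and limits what reaches Kdr, had log2 values of 7.54 and 7.43 in transgenic limbs of experiments 2 and 1, against 7.43 and 7.40 in wildtype limbs. The log2 difference between genotypes was 0.05 for Kdr and 0.07 for Flt1, with a standard error of 0.09 and 0.08 from limma without a term for the experiment. The genotypes overlapped for Flt1 as well.

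The receptors of the angiopoietin system were higher in transgenic limbs in both experiments, next to larger shifts between the experiments. They were among 7 such genes of the 10, Flt1 included, and 22.4% of all probe sets were also higher in both. Tek, also called Tie2, the angiopoietin receptor, had log2 values of 8.21 and 8.54 in transgenic limbs of experiments 2 and 1, against 8.11 and 8.44 in wildtype limbs. Transgenic limbs were thus 0.10 higher in each experiment, but both values of experiment 1 lay above both of experiment 2, and the genotypes overlapped. Tie1, which modulates Tek, had log2 values of 7.88 and 7.62 in transgenic limbs of experiments 2 and 1, against 7.76 and 7.56 in wildtype limbs. It was higher in transgenic limbs by 0.12 and 0.06 in experiments 2 and 1. Here the values of experiment 2 were the higher ones, so that Tek and Tie1 shifted in opposite directions.

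Of the junction genes, Pecam1 differed most between the experiments. Pecam1, the adhesion molecule CD31 of endothelial contacts, which platelets and leukocytes also carry, had log2 values of 8.11 and 8.71 in transgenic limbs of experiments 2 and 1, against 8.10 and 8.75 in wildtype limbs. Within an experiment the genotypes were at most 0.04 apart. Cdh5, the endothelial cadherin of adherens junctions, had log2 values of 7.68 and 7.67 in transgenic limbs of experiments 2 and 1, against 7.68 and 7.79 in wildtype limbs, and 1 wildtype array was the highest of the 4. Cldn5, the claudin of endothelial tight junctions, had log2 values of 8.46 and 8.52 in transgenic limbs of experiments 2 and 1, against 8.34 and 8.49 in wildtype limbs. The lowest Cldn5 value was that of wildtype limbs in experiment 2, and both values of experiment 2 lay below both of experiment 1.

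The surface proteins Emcn and Plvap shifted between the experiments in opposite directions. Emcn, the sialomucin endomucin of veins and capillaries, had log2 values of 8.67 and 9.11 in transgenic limbs of experiments 2 and 1, against 8.62 and 9.03 in wildtype limbs. Plvap, which forms the diaphragms of caveolae and fenestrae, had log2 values of 9.42 and 8.75 in transgenic limbs of experiments 2 and 1, against 9.33 and 8.74 in wildtype limbs. Sox17, a transcription factor of arterial endothelium, had log2 values of 7.57 and 7.45 in transgenic limbs of experiments 2 and 1, against 7.49 and 7.38 in wildtype limbs. In none of the 3 did the transgenic arrays stand clear of the wildtype ones.

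**Figure D1:**
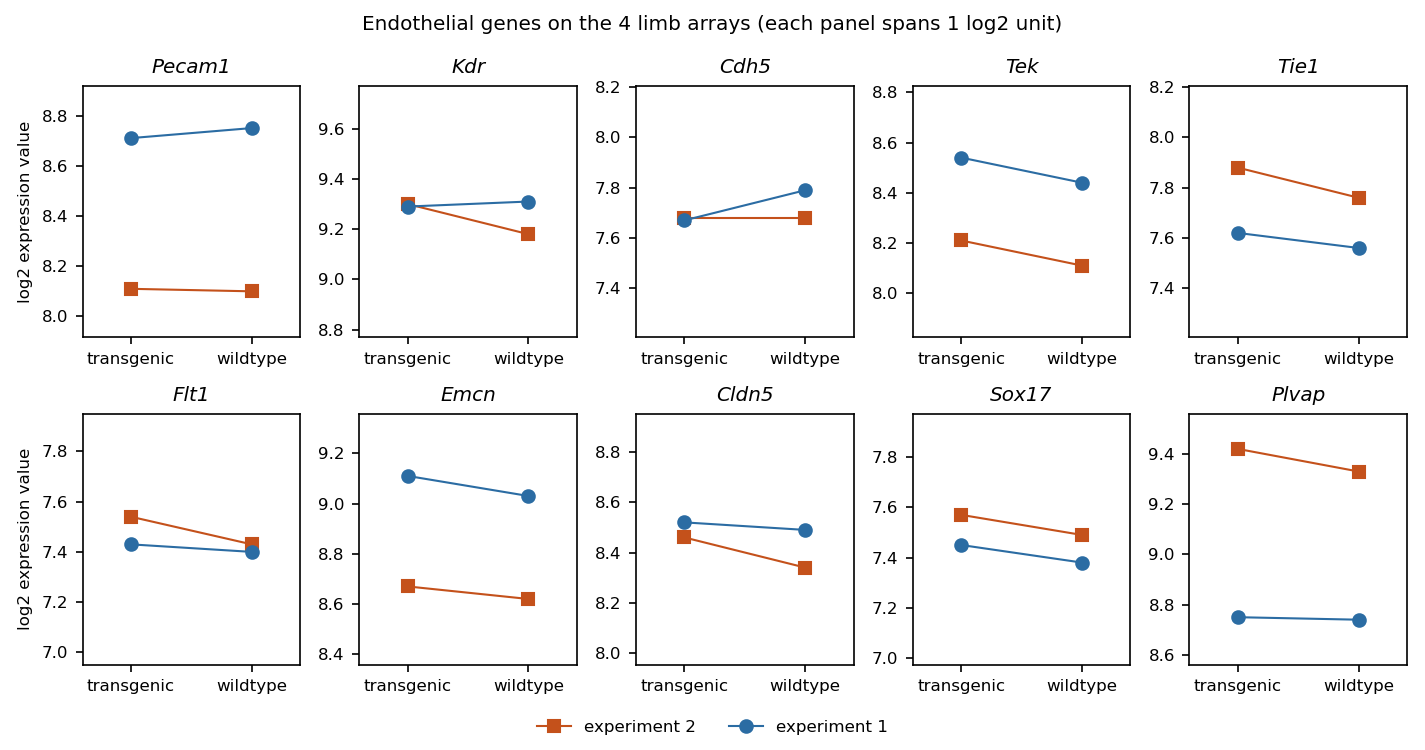
Log2 expression value of each endothelial gene (vertical axis, every panel spanning 1 log2 unit) on the transgenic and wildtype array of experiment 2 (squares) and experiment 1 (circles), with a line joining the arrays of 1 experiment. The lines are nearly level, while those of Pecam1, Tek, Emcn and Plvap lie far apart: for Pecam1 both arrays of experiment 2 are at 8.10 to 8.11 and both of experiment 1 at 8.71 to 8.75.

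Across the 10 genes, 0 passed the thresholds in limma without a term for the experiment, against 31 of all 16492 probe sets (0.188%). With the experiment as a block 0 passed as well, against 256 of all probe sets (1.55%). At an unadjusted p under 0.05 alone, 0 of the 10 passed in limma, against 0.194% of all probe sets without the block and 7.92% with it. The lowest adjusted p was 0.743 with the block, where 0.273% of all probe sets passed 0.05, and 1 without it. The group means spread widely for the genes that differ between experiments: Plvap averaged 9.08 ± 0.48 in transgenic limbs and 9.03 ± 0.42 in wildtype limbs (SD, n = 2 each). Without the block, the 95% interval of its log2 difference of 0.05 therefore ran from -0.78 to 0.88, and that of Pecam1, at -0.02, from -0.84 to 0.80. With the block the intervals of all 10 genes lay between -0.18 and 0.22 on the log2 scale, the upper bound being that of Tek and the lower that of Cdh5. As linear ratios of transgenic to wildtype limbs these bounds are 1.16 and 0.88. The blocked errors, 0.06 for each gene, come largely from all genes together, because each gene has 1 residual degree of freedom of its own and limma adds 16.4 from the others.

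The median log2 difference of the 10 genes was 0.06, beside -0.01 over all probe sets. In experiments 2 and 1 the medians were 0.10 and 0.03. All 10 genes were higher in transgenic limbs in experiment 2 (44.6% of all probe sets) and 7 in experiment 1 (47.3%). The 7 were thus higher in both, as were 22.4% of all probe sets, and 8 had a mean difference above 0, as had 43.4%. None differed by more than 0.10 in the mean, as with 85% of all probe sets. With the arrays centred on a common median, or quantile normalized again, 8 were higher in experiment 2 and 6 in both, Plvap having left the 7. No gene had both transgenic arrays above both wildtype arrays, which 5.67% of all probe sets had, or both below, which 12.7% had. When 1 array was left out with no block, the median ran from -0.01, without wildtype replicate 2, to 0.08.

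Between the experiments, 5 of the 10 genes passed the same thresholds in limma with genotype as the other term, as did 30.2% of all probe sets. The errors are those of the blocked fit, with 1 residual degree of freedom per gene, and come largely from all genes together. The arrays compared within an experiment are of different genotypes. Of the 5, 2 were higher in experiment 2 (15.4% of all probe sets) and 3 lower (14.8%), and all 5 passed an adjusted p of 0.05, as did 39.2%. Pecam1 averaged 8.10 in experiment 2 and 8.73 in experiment 1, a log2 difference of -0.63 (standard error 0.06, adjusted p = 2.27e-07 from limma). Emcn was lower in experiment 2 by a log2 difference of -0.43 (adjusted p = 1.39e-05 from limma) and Tek by -0.33 (adjusted p = 0.000194 from limma). Plvap averaged 9.37 in experiment 2 and 8.74 in experiment 1, a log2 difference of 0.63 (standard error 0.06, adjusted p = 2.29e-07 from limma). On a linear scale this is a ratio of 1.55 for Plvap and of 0.648 for Pecam1, in the same arrays. Tie1 was higher by 0.23 (adjusted p = 0.00423 from limma). Its difference was 0.20 with centred arrays and with repeated quantile normalization, just short of the fold threshold, and 0.17 without transgenic replicate 2, so that 4 genes then passed.

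The other 5 genes, Kdr, Cdh5, Flt1, Cldn5 and Sox17, had log2 differences between the experiments of -0.10 to 0.11 and adjusted p-values from 0.141 to 0.517 in limma. Counted over the 10 genes, the absolute difference between experiments had a median of 0.17 and that between genotypes of 0.06. Over all probe sets these medians were 0.11 and 0.04. The difference between experiments was the larger in size for 9 of the 10 genes, Cdh5 being the exception, and for 74.4% of all probe sets. The arrays of the experiments did not overlap for 8 of the 10 genes, Kdr and Cdh5 being the exceptions, and for 66.4% of all probe sets. An experiment here is 1 array per genotype, defined by the shared title suffix, so the hybridization, the litters and the dissection cannot be told apart in these shifts.

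**Figure D2:**
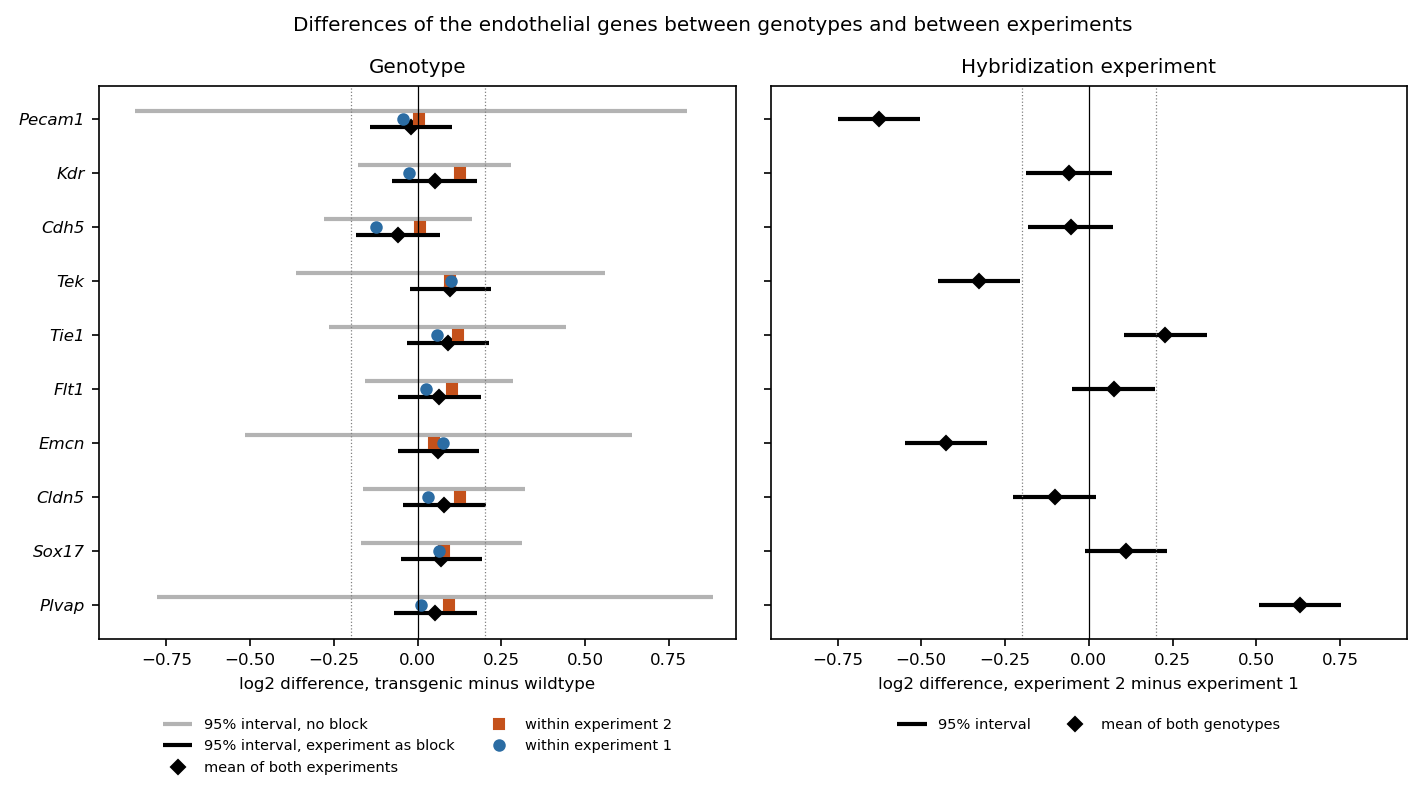
Log2 differences of the 10 endothelial genes between transgenic and wildtype limbs (left) and between experiments 2 and 1 (right), with 95% intervals from limma and dotted lines at the fold threshold of 0.2 in either direction. On the left all intervals with the experiment as a block (black) lie between -0.18 and 0.22 while those without it (grey) reach 0.88, diamonds are means, and squares and circles are the differences within experiments 2 and 1. On the right Pecam1, Emcn and Tek lie below and Plvap and Tie1 above the thresholds.

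Other vascular genes were taken from 12 lists that cover further endothelial genes, VEGF and angiopoietin signalling, arterial, venous and lymphatic identity, endothelial transcription factors, BMP signalling, junctions, caveolae, basement membrane and hypoxia. Of their 145 genes beside the 10, 137 had a named probe set. In limma without a block 0 of the 137 passed the thresholds for genotype, and 0 had an unadjusted p under 0.05. With the experiment as a block 6 were higher and 0 lower (4.38%, against 1.55% of all probe sets, of which 1.23% were higher and 0.321% lower). At an unadjusted p under 0.05 alone 19 of the 137 passed with the block, against 7.92% of all probe sets, and 0 passed an adjusted p of 0.05. The median log2 difference of the 137 genes was 0.04. The lists were drawn up with earlier results of these arrays known, and their counts are a description.

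The 6 genes came from different lists. The arrays are of pooled whole limbs, and which cells carried these differences was not tested. Foxc2, a forkhead factor of lymphatic valves and of the mesenchyme around vessels, had log2 values of 8.56 and 8.05 in transgenic limbs of experiments 2 and 1, against 8.0 on both wildtype arrays. Its log2 difference of 0.30 (limma with the block, adjusted p = 0.21) thus came mainly from 1 transgenic array. Cavin2, a coat protein of caveolae, had log2 values of 7.58 and 8.20 in transgenic limbs of experiments 2 and 1, against 7.33 and 7.97 in wildtype limbs. It was higher in transgenic limbs by 0.25 and 0.23 in these experiments (limma with the block, adjusted p = 0.124). Angptl1, an angiopoietin-like secreted protein, had a log2 difference of 0.22 and Hey2, a Notch target of arteries, of 0.20. Bmper, which binds BMP outside cells, had 0.20, and Pdk1, a kinase of glucose metabolism induced in hypoxia, 0.21. None of these passed an adjusted p of 0.05, and none passed without the block.

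Ligands and coreceptors of VEGF gave no call for genotype in either fit. Of all probe sets 0.188% passed without the block and 1.55% with it. Vegfc, a ligand for lymphatic growth, had a log2 difference of 0.10 and Nrp1, a coreceptor of VEGF, of 0.13. Among angiopoietins, Angpt2, the ligand that destabilises vessels, had a log2 difference of 0.14. Of 28 further pan-endothelial genes 0 passed in either fit, beside the same shares of all probe sets. Calcrl, the receptor subunit for adrenomedullin, had the largest log2 difference among them, 0.18, and Vwf, the clotting factor carrier of endothelium, had 0.17. In the arterial list Hey1, another Notch target, had a log2 difference of -0.15, opposite in sign to Hey2. Of the endothelial transcription factors, Mef2c had a log2 difference of 0.18, and it is a gene that the study selected on these arrays. Nr2f2, which specifies veins, had 0.07 and Nrp2, a coreceptor of veins and lymphatics, -0.08.

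Mmrn1, a multimerin of lymphatic vessels and platelets, had a log2 difference of 0.15 between genotypes. Id1, a target of BMP signalling, had one of -0.13. Slc2a1, the glucose transporter GLUT1, had 0.15, with log2 values of 10.32 and 10.23 in transgenic limbs of experiments 2 and 1, against 10.16 and 10.09 in wildtype limbs, so that both transgenic arrays were above both wildtype arrays. Tjp1 and Ctnnd1, which link junctions to the cytoskeleton, had 0.11 and 0.08. Cav1, the main coat protein of caveolae, had 0.10. The laminin chains Lama5 and Lamb1 of the basement membrane had -0.06 and 0.08. None of these genes passed the thresholds in limma, with or without the block.

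The caveola genes shifted together between the experiments, and against Plvap. All 6 measured genes, Cav1, Cav2, Cavin1, Cavin2, Cavin3 and Ehd2, were lower in experiment 2 past the thresholds, as were 14.8% of all probe sets. Their log2 differences ran from -0.63 for Cavin2 to -0.27 for Cavin1. Cav1 had log2 values of 9.21 and 9.73 in transgenic limbs of experiments 2 and 1, against 9.12 and 9.61 in wildtype limbs. Plvap, which sits in the same structures in endothelium, was 0.63 higher. Caveolae are also present in muscle and connective tissue, and the arrays do not tell the cell types apart.

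Of the other genes of angiopoietin and VEGF signalling, some differed between the experiments and some did not pass. In the angiopoietin list 0 of 6 were higher and 3 lower, against 15.4% and 14.8% of all probe sets. Angpt1, the activating ligand of Tek, was lower in experiment 2 by a log2 difference of -0.49 (adjusted p = 3.68e-06 from limma) and Angpt2 by -0.29 (adjusted p = 0.000687 from limma). Angptl1 was lower by -0.78 (adjusted p = 2.05e-08 from limma), a shift larger in size than its genotype difference of 0.22. Angpt4, another ligand of Tek, had a log2 difference of 0.03 and did not pass (adjusted p = 0.754 from limma). In the VEGF list 5 of 8 were higher and 1 lower. Vegfb, a ligand of Flt1, was higher by 0.66, Vegfd by 0.34 and Vegfa by 0.24, whereas Nrp1 was lower by a log2 difference of -0.51 and Nrp2 and Flt4 were higher by 0.44 and 0.28. Vegfc and Pgf, at -0.04 and -0.05, did not pass (adjusted p = 0.616 and 0.51 from limma). Of 22 endothelial transcription factors 6 were higher and 4 lower. The ETS factor Fli1 was lower at -0.55 and Ets1 at -0.31, and Elk3 and Ets2 were higher at 0.35 and 0.30, while Erg, at -0.10, did not pass. Of the 28 further pan-endothelial genes 7 were higher and 7 lower. Over the 137 other vascular genes 31 were higher and 38 lower (50.4%, against 30.2% of all probe sets).

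**Figure D3:**
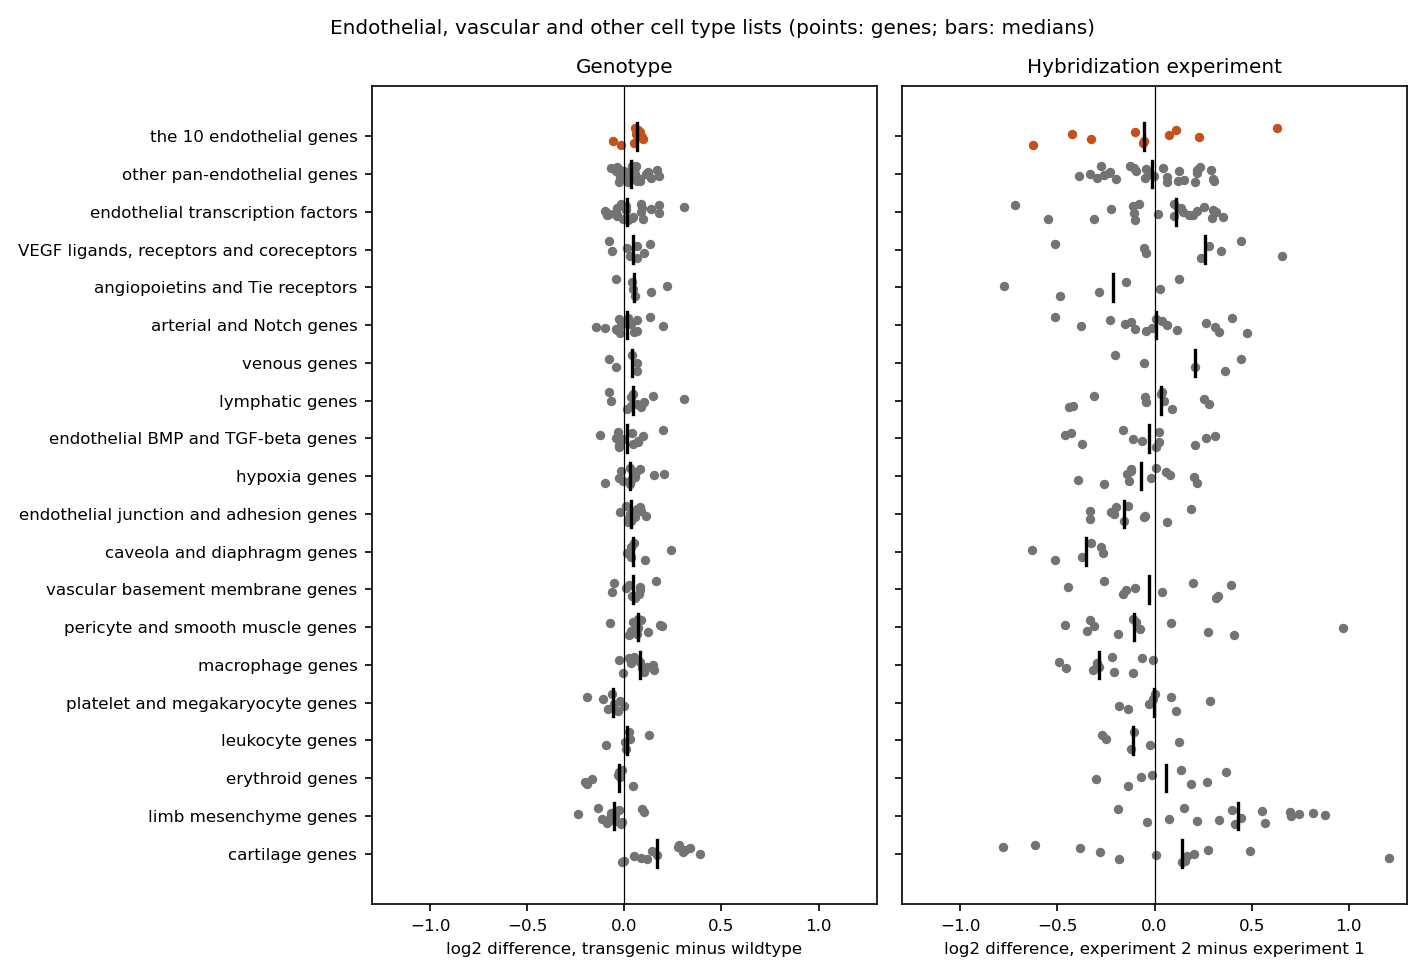
Log2 differences between transgenic and wildtype limbs (left) and between experiments 2 and 1 (right) of the 10 endothelial genes (orange) and of the genes of each other list (grey), with a bar at the median of each list. Genotype differences of the endothelial genes stay between -0.06 and 0.10, while their experiment differences run from -0.63 to 0.63 and the caveola genes all lie below 0.

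Between the experiments 15.4% of all probe sets were higher and 14.8% lower, 30.2% in all, and the marker lists of other cell types are given beside these shares. Of 11 measured macrophage genes 0 were higher and 8 lower in experiment 2, and their summed signal on the log2 scale was 11.20 and 11.41 in transgenic limbs of experiments 2 and 1, against 11.07 and 11.40 in wildtype limbs. The 8 lower genes are 72.7% of the macrophage list. Macrophages can carry Pecam1, Flt1 and Tek. Of 8 platelet genes 1 was higher, with summed signals of 11.11 and 11.12 in transgenic limbs against 11.14 and 11.23 in wildtype limbs. Of 6 leukocyte genes 2 were lower (33.3%), with 10.11 and 10.19 in transgenic limbs against 10.11 and 10.19 in wildtype limbs. Of 12 pericyte and smooth muscle genes 3 were higher and 4 lower (58.3%), and their summed signal was 12.70 and 12.64 in transgenic limbs against 12.44 and 12.65 in wildtype limbs. Of 8 erythroid genes 2 were higher and 1 lower (37.5%), with 15.51 and 15.38 in transgenic limbs against 15.53 and 15.54 in wildtype limbs. Of 16 limb mesenchyme genes 12 were higher in experiment 2 and none lower (75%). The platelet, leukocyte and erythroid shares were thus below or near that of all probe sets. The scale has no zero and no detection call, so absence of a cell type cannot be read from it, and the part of these cells in the endothelial values was not tested.

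Between genotypes 1.55% of all probe sets passed the thresholds in limma with the block and 0.188% without it. Among the macrophage, platelet, leukocyte and pericyte genes 0 passed in either fit. The largest log2 differences were 0.15 for Adgre1 and for C1qb in macrophages, -0.19 for Treml1 and -0.11 for Itgb3 in platelets, 0.12 for Cd53 and -0.09 for Coro1a in leukocytes, and 0.19 for Acta2 and 0.18 for Tagln in pericytes and smooth muscle. Hba-x and Hbb-bh1, embryonic globins, had -0.20 and -0.19, and Hba-x was past the thresholds with the block. In the mesenchyme list Tbx5, the forelimb factor, had -0.24 and passed with the block, and Shox2 had -0.14. Of 13 cartilage genes 6 were higher with the block (46.2%, against 1.23% of all probe sets). Without it 1 was higher (7.69%, against 0.188% called in either direction). Col9a3, at 0.39, and Matn1, at 0.34, led this list.

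The arrays differed in 2 further ways that bear on these values. Xist, which is transcribed from the inactive X chromosome of female cells, had log2 values of 6.42 and 6.58 in transgenic limbs of experiments 2 and 1, against 9.36 and 9.62 in wildtype limbs, and Eif2s3y, on the Y chromosome, had 8.94 and 9.02 in transgenic limbs against 8.30 and 8.0 in wildtype limbs. The sex of the pooled embryos is not given. Both genes separated the genotypes in both experiments. Genotype and the sex make-up of the pools therefore cannot be told apart in any genotype difference given here. The log2 distance from the 5′ to the 3′ control probe sets of the transferrin receptor, a sign of RNA integrity and labelling, was 0.90 and 1.13 in transgenic limbs of experiments 2 and 1, against 0.85 and 1.09 in wildtype limbs. For Gapdh it was 0.06 and 0.12 in transgenic limbs against 0.03 and 0.14 in wildtype limbs, also larger in experiment 1. For beta-actin it was 0.84 and 0.78 in transgenic limbs against 0.80 and 0.72 in wildtype limbs, smaller in experiment 1. The part of either in the endothelial values was not tested.

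The median pattern of the 10 genes over the arrays, each gene centred on its own mean, was 0.02 and -0.00 in transgenic limbs of experiments 2 and 1, against -0.06 and 0.04 in wildtype limbs. The named probe sets closest to it among those with a range of at least 0.2 were Hoxa2, Saa3, Cobl, Pcdh19 and Fam216b, at root mean square distances of 0.04 on the log2 scale over the 4 arrays. Members that shifted between the experiments did so in opposite directions, from -0.63 for Pecam1 to 0.63 for Plvap, and the median follows neither. With 4 arrays and so flat a pattern, such closeness describes the arrays only.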

How the data were processed

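The authors deposited log2 values of 4 Affymetrix mouse genome arrays. Their methods state that perfect-match probes, grouped into Entrez genes by custom CDF version 13, were put on a log scale, quantile normalized and analysed by mixed models in JMP Genomics 4.0. How probes were summarised is not stated, and the build is not given in the sources used here. The base of the logarithm was read from the range of the values.

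After 64 control probe sets were left out, 16492 were tested, of which 15270 have a symbol in the platform annotation and 1222 are unnamed. Genotypes were compared with limma 3.58.1 in R 4.3.3 (lmFit, eBayes, Benjamini-Hochberg over all probe sets), without the experiment, as in the methods, and with it as a replicate block. The pairing rests on the shared title suffix, which the labels do not explain, and on the described littermates, and paired arrays deviated together (r = 0.857 over probe sets). The experiments were compared with genotype as the other term. No set test was run. Scripts were tested on simulated data. Signal over background is unknown. Precision is limited by the number of arrays.

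The 10 genes and all lists were chosen with earlier results of these data known. The text names the 10 genes, the 2 genes of each list with the largest genotype difference (in vascular lists, of 1 sign in both experiments), the 5 genes closest in pattern, and, chosen after their values were seen, those named for calls with the block or between experiments. Alternatives were scaling, filters on dim probe sets, an intensity trend, no moderation, other fold thresholds, the block, and leaving out each array.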

Additional observations from a re-analysis of the deposited data

How the results depend on the processing

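No endothelial gene passed the genotype thresholds under any alternative, the replicate block (0 calls) and each array left out (0 to 0 calls) included. Over all probe sets the count of 31 (22 higher, 9 lower) became 256 with the replicate block, 244 with the block and centred arrays, 246 with the block and repeated quantile normalization, 8 beyond a log2 difference of 0.4, 15 and 6 without dim probe sets below the 25th and 50th percentile, 48 with an intensity trend (24 higher, 24 lower) and 14 without moderation. Centring alone gave 18 higher and 19 lower. With 1 array left out it ran from 12, without wildtype replicate 2, to 56, without wildtype replicate 1. Of 22 endothelial transcription factors 0 were called without the block, against 0.188% of all probe sets. With the block 1 was called (Foxc2, 4.55%, against 1.55% of all probe sets). The members' median log2 difference ran from -0.006 to 0.083 with 1 array left out. Such fits, with no block, put part of the shift between experiments into genotype, and 7 genes then changed sign: Pecam1 ran from -0.345 to 0.306, Plvap from -0.283 to 0.390, Emcn from -0.157 to 0.282, Tek from -0.066 to 0.262, Tie1 from -0.041 to 0.22, Kdr from -0.017 to 0.118 and Cdh5 from -0.118 to 0.001. The other 3 stayed above 0. Without probe sets below the 50th percentile 6 of the 10 genes were tested, in the genotype comparison as well. Between the experiments Pecam1, Emcn, Tek and Plvap again passed and Tie1 was not tested, which left 4 calls in place of 5. The share of all probe sets that passed under this filter is not given here, so this count has no share beside it. Fits between experiments with 1 array left out had no term for genotype, since both terms would leave no residual degree of freedom. In them Kdr ran from -0.122 to 0.005 and Cdh5 from -0.116 to 0.008. The blocked scalings and the alternatives for each gene's experiment difference were chosen after seeing the data.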
